A study of Mus musculus with 4 samples.

Results

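Among B220lo bone marrow cells of the control group, 3101 cells carried B-lineage transcripts but had no immunoglobulin contig in the deposited contig table. The expression data of these cells were examined here. Each was a cell barcode of 1000 or more UMIs (unique molecular identifiers, each counting 1 captured transcript) and 500 or more genes, in which mitochondrial transcripts made up 10% or less, with 2 or more UMIs of Cd79a, 0 UMIs of Siglech and no entry in the deposited contig table. Cd79a encodes a signalling chain of the B-cell receptor, and Siglech marks plasmacytoid dendritic cells (pDC). The 3101 cells were 26.9% (95% exact Clopper-Pearson interval 26.1% to 27.7%) of the 11533 cells that met the Cd79a and Siglech conditions, and were drawn from 16861 deposited barcodes of this library and 56502 of the whole series. They were set beside the 7882 cells of the same library that met those conditions and had a contig of the immunoglobulin heavy chain (IGH contig cells). Of these, 1572 had no light chain contig and 6310 had one. A further 550 cells had a light chain contig only.

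The study profiled single bone marrow cells with a 5′ kit 10 weeks post-transplantation, in 4 libraries with 1 library per group. All were sorted for CD45.2, a surface antigen commonly used to tell donor from host cells. The B220lo library was labelled control, and the other libraries held Kit+ cells labelled control, Mll3/4 deleted and Mll3/4SI. MLL3 and MLL4 are histone methyltransferases, and the labels do not spell out SI, the deleting Cre, the donor strain or how many mice were pooled. With 1 library there was no replicate, so no difference was tested. The intervals given cover counting error only.

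B cells arise in bone marrow through ordered rearrangement of their receptor genes. The recombinase made by Rag1 and Rag2 joins D to J and then V segments at the heavy chain locus in pro-B cells, and terminal transferase, encoded by Dntt, adds bases at the joints. A productive heavy chain pairs with the surrogate light chain (Vpreb1, Vpreb2 and Igll1) to form the pre-B receptor, the cells divide, and small pre-B cells then rearrange a light chain. A contig is listed for a cell only when a V(D)J transcript was captured and assembled.

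The deposited tables of the B220lo library held 18894 contigs of 9872 barcodes, and 0 of these barcodes were absent from the expression matrix. All contigs were listed as productive and of high confidence, so a cell without a contig is one with no such contig listed. The 9810 IGH contigs had a median of 14 UMIs. Cells without a contig had a median of 2933 UMIs and IGH contig cells 3168. The B-lineage label was checked on genes that the selection did not use. Ebf1 is a transcription factor that commits cells to the B lineage. It stood at 3227 CPM in cells without a contig and 2259 CPM in IGH contig cells. CPM are counts scaled to the same total of UMIs in each group. The log2 ratio of Ebf1, 0.51, was 0.29 without the clusters of low ribosomal protein share described below. With every cell thinned at random to 1000 UMIs, Ebf1 was found in 83.2% of cells without a contig, 5.03% of 1033 pDC (2 or more Siglech and 0 Cd79a UMIs) and 5.63% of 391 NK or T cells (2 or more UMIs of the cytotoxic granule gene Nkg7 and 0 of Cd79a and Siglech) of the same library. These populations serve as background below. Both were required to have 0 Cd79a UMIs, so cells of these types that held Cd79a transcripts are not among them. Their shares of B-lineage and immunoglobulin transcripts may be low in part through that choice. Pax5, which maintains B-cell identity, was found in 39.6%, 1.65% and 2.56%. In IGH contig cells the shares were 77.7% for Ebf1 and 38.7% for Pax5. Of the cells without a contig, 164 (5.29%) shared their barcode with another library, as did 5.08% of all kept B220lo barcodes, and for 12 of the 164 that other library listed a contig. A doublet caller marked 0 of 16329 kept barcodes by its own threshold and so had not worked. A doublet score of 0.25 or more was found for 4.74% of cells without a contig and 5.07% of IGH contig cells.

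Among the cells without a contig, 17 (0.548%) resembled the Mll3/4 deleted library. They held 3 or more of the 5 IGH V genes most counted in that library, Ighv1-66, Ighv1-75, Ighv1-23, Ighv1-76 and Ighv1-62-3, as did 98.2% of its cells selected in the same way. Transcripts of 4 Y-linked genes were found in 9 of the 17, in 2 of the other 3084 and in 62.0% of the deleted cells. The barcodes of 0 of the 17 occurred in the deleted library. Their origin was not tested. Without such cells the share without a contig was 26.8%.

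Heavy chain V genes of family 3 were counted in the expression matrix of many cells but were nearly missing from the contigs, as described further on, and 4 of these segments are shown for that reason. The 120 bases given for each end at the codon of the conserved cysteine of framework region 3, in the coding exon on the minus strand of chromosome 12 (GENCODE M21 annotation of GRCm38). They span chr12:114288160-114288279 in Ighv3-6, chr12:114322382-114322501 in Ighv3-8, chr12:113964396-113964515 in Ighv3-1 and chr12:114253625-114253744 in Ighv3-4. Capitals mark bases that differ from Ighv3-6.
Ighv3-6: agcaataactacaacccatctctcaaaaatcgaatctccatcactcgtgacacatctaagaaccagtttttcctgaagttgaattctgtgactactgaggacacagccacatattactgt
Ighv3-8: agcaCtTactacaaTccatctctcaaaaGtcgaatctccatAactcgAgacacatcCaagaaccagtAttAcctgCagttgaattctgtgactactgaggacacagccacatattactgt
Ighv3-1: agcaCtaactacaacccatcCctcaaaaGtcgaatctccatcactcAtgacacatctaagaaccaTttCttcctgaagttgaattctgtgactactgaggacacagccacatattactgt
Ighv3-4: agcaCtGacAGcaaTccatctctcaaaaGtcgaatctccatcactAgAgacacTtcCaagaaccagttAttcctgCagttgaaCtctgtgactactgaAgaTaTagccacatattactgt
At the level of bases, Ighv3-1 was identical to Ighv3-6 at 114 of these 120 bases (95%), Ighv3-8 at 110 (91.7%) and Ighv3-4 at 104 (86.7%). Reads of such similar segments could be split between them in counting, so single V genes of this family are less certain than the family.

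The share of cells without a contig depended on depth and on Cd79a, both of which the selection used. It was 54.5% at 1000 to under 1500 UMIs, 36.1% at 1500 to under 2000, 24.3% at 2000 to under 3000 and lowest, 20.7%, at 3000 to under 4000. It was 24.9% and 27.7% in the next intervals and 30.3% at 10000 UMIs or more, so it did not keep falling with depth. Just inside the Cd79a limit, at 2 UMIs, 425 cells had no contig (55.8%). Just outside it, at 1 UMI, 670 cells had none (66.5%). At 0 UMIs the share was 82.3%, at 16 to 31 UMIs 18.8% and at 32 or more 25.8%. The 425 cells at 2 UMIs also stood apart in quality, with a median of 3.65% ribosomal protein UMIs against 14.6% in cells without a contig at 3 or more.

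**Figure D1:**
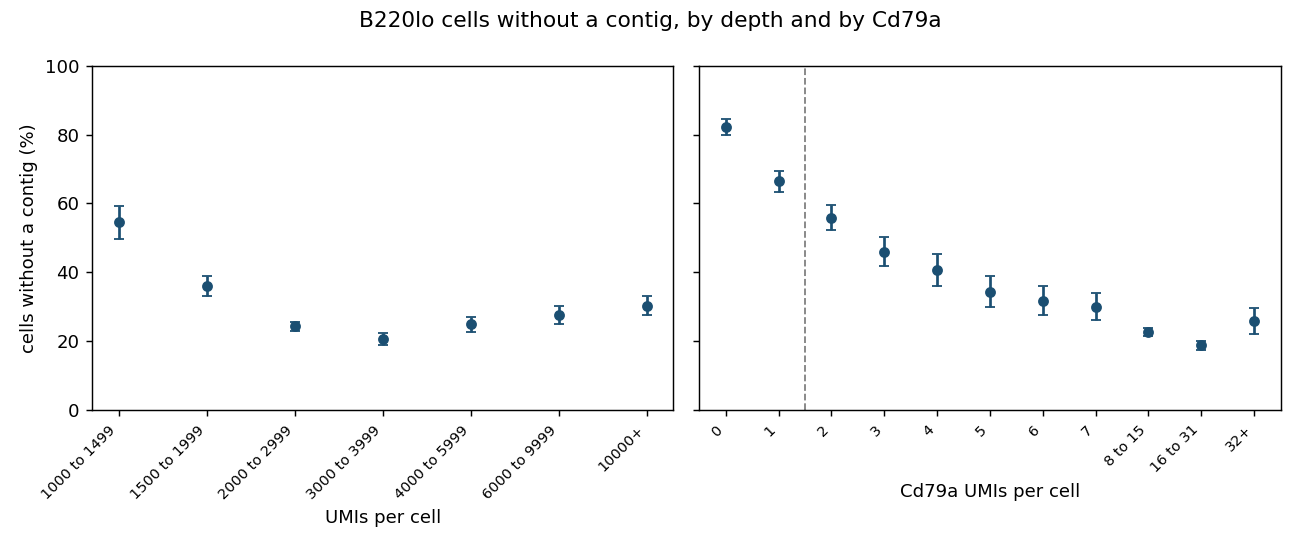
Percentage of B220lo cells without a contig (vertical axis) by total UMIs per cell among Cd79a cells (left) and by Cd79a UMIs among kept cells with 0 Siglech UMIs (right). Bars are 95% exact intervals and the dashed line is the Cd79a limit; the share is 54.5% at the lowest depth and 20.7% at 3000 to under 4000 UMIs.

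Most cells without a contig nevertheless contained heavy chain V transcripts in the expression matrix. At 1000 UMIs per cell, 70.0% (68.4% to 71.7%) had at least 1 UMI of an IGH V gene, against 91.6% of IGH contig cells, 12.3% of pDC and 14.3% of NK or T cells. At full depth the shares were 90.0% in cells without a contig, 54.2% in pDC (median 5904 UMIs per cell) and 51.7% in NK or T cells (median 4947), so at full depth a single V UMI was also found in more background cells than not. The median cell without a contig held 4 IGH V UMIs, the median IGH contig cell 12, and the median pDC 1. Ighm, which encodes the constant region of the mu heavy chain, was found at 1000 UMIs in 58.3% of cells without a contig, 68.6% of IGH contig cells, 31.5% of pDC and 14.1% of NK or T cells. Igkc, the kappa constant region, was found in 12.2%, 21.9%, 1.84% and 1.79%. Shares in cells without a contig lay above both background populations and below IGH contig cells for these readouts, as they did for the lambda constant regions Iglc1 and Iglc2. Iglc3, found in 16.8% of cells without a contig, was found in 19.5% of pDC and 1.53% of NK or T cells. Among cells without a contig the pooled level of IGH V transcripts was 2040 CPM, but 4 cells with a V gene at 100 or more UMIs supplied 8144 of the 30765 IGH V UMIs.

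A dominant V gene was used to separate cells that express 1 heavy chain from cells with scattered V UMIs. A leading V gene was called where 1 IGH V gene had at least 5 UMIs and at least 50% of all IGH V UMIs of the cell. It was found in 1142 cells without a contig (36.8%, interval 35.1% to 38.6%), in 6577 IGH contig cells (83.4%), in 3 pDC (0.29%) and in 1 NK or T cell (0.256%). With a minimum of 3 UMIs the share in cells without a contig was 52.0%, and with a minimum of 10 UMIs it was 13.9%. The limit therefore cuts a range: 504 cells without a contig had a highest V gene at 3 or 4 UMIs and 370 led with 5 or 6. In IGH contig cells the leading gene outside family 3 was the V gene of the cell's own contig in 6389 of 6505 cells (98.2%). A leading kappa V gene by the same limits was found in 367 cells without a contig, 202 of which also had a leading IGH V gene.

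**Figure D2:**
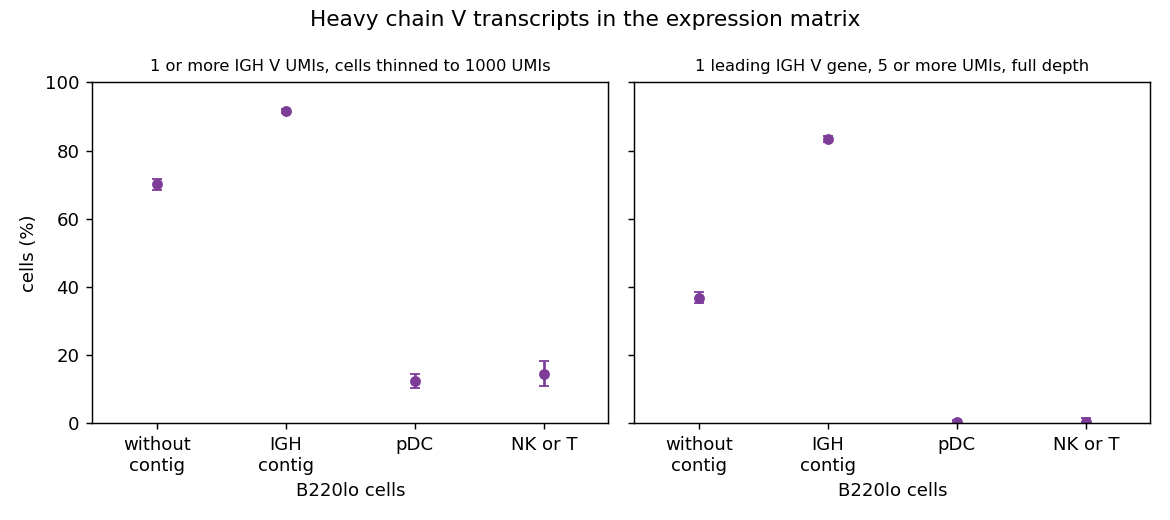
Percentage of cells (vertical axis) with at least 1 IGH V UMI at 1000 UMIs per cell (left) and with 1 leading IGH V gene at full depth (right), for cells without a contig, IGH contig cells, pDC and NK or T cells of the B220lo library, with 95% exact intervals. Cells without a contig lie between the background populations and IGH contig cells in both panels (70.0% and 36.8%).

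Cells that led with a V gene of family 3 had almost no heavy chain contig of that family. Among 7973 Cd79a cells with a leading V gene, 400 led with family 3, and 169 of them (42.3%, interval 37.4% to 47.3%) had no contig, against 973 of 7573 (12.8%, 12.1% to 13.6%) for the other families together. Only 6 of the 400 (1.5%) had an IGH contig of family 3, and 72 had an IGH contig of any family. Of the 7573 cells 6505 (85.9%) had an IGH contig of any family. A light chain contig alone was listed for 159 of the 400. Among the other families with at least 100 leading cells, the share without a contig ranged from 7.86% in family 4 to 21.4% in family 10, and the share with an IGH contig of the same family from 90.0% to 76.2%. Family 3 thus made up 14.8% of the leading V genes of cells without a contig and 1.09% of those of IGH contig cells. With light chain contigs allowed the first share was 23.5%.

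Within the family, 3 genes led in most of the cells. Ighv3-6 (chr12:114288152-114288582) led in 269 cells, 114 of which had no contig, and the whole contig table listed it 3 times. Ighv3-8 (chr12:114322327-114322801) led in 64 cells, 29 without a contig, and Ighv3-1 (chr12:113964388-113964818) in 45 cells, 20 without a contig; the contig table listed each 0 times. Ighv3-4 (chr12:114253617-114254051) led in 6 cells, 4 of which had a contig of that gene. Ighv3-5 led in 13 cells, of which 2 had no contig and 9 had a light chain contig only. The contig table listed it 0 times. The median cell without a contig that led with Ighv3-6 held 10 UMIs of it, and those leading with Ighv3-8 and Ighv3-1 held 8 and 14. Of the pDC, NK and T cells, 0 had 5 or more UMIs of any of the 3 genes. One cell without a contig held 2538 of the 3444 Ighv3-1 UMIs. Family 3 accounted for 10 of 9810 IGH contigs (0.102%) of the B220lo library, 23 of 3393 (0.678%) of the deleted library, 0 of 34 of the control Kit+ library and 0 of 25 of the SI library. Whether contig assembly, its reference or the expression counts set this was not tested.

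**Figure D3:**
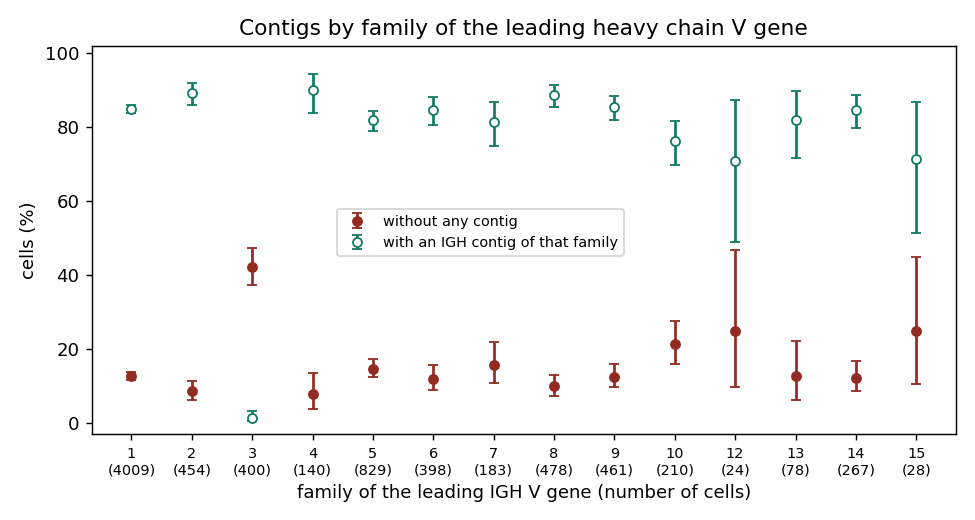
Percentage of Cd79a cells without any contig (filled) and with an IGH contig of the same family (open) by family of the leading IGH V gene, for families with at least 20 leading cells (numbers in brackets), with 95% exact intervals. Family 3 has 42.3% without a contig and 1.5% with a contig of its own family.

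The 311 cells without a contig and with 0 IGH V UMIs, the 1648 with some but no leading V gene and the 1142 with a leading V gene had median depths of 3571, 2802.5 and 2972.5 UMIs, so the cells with 0 were not the shallowest. The median cell without a contig held UMIs of 2 different IGH V genes, as did the median IGH contig cell. Ighv14-2 (chr12:113994469-113994898) was also counted by cluster. In cells without a contig of a pro-B-like cluster described below (cluster 7), it was found in 46 of 384 (12.0%, interval 8.91% to 15.7%), with at most 3 UMIs in a cell. In cells without a contig of cluster 10, led by granulocyte genes, it was found in 54 of 255 (21.2%) at a median depth of 12450 UMIs. It was found in 4.54% of IGH contig cells and 2.61% of pDC. At 1000 UMIs per cell the shares were 6.25% (4.05% to 9.16%) in cluster 7, 0.784% in cluster 10, 2.18% in IGH contig cells and 0.387% in pDC. Ighv14-2 was singled out after its values were seen. Its shares by cluster were not set beside those of other IGH V genes, so whether they are particular to it was not tested.

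Genes of early B-cell stages were higher in cells without a contig than in IGH contig cells. Summed over 20 genes of pro-B and pre-B cells, the level was 7614 CPM in cells without a contig and 5047 CPM in IGH contig cells, a log2 ratio of 0.59 (0.58 to 0.60). IGH contig cells without a light chain contig lay between, at 6829 CPM. Of 11070 genes with at least 100 UMIs in the higher group, 283 (2.56%) were 2-fold or more higher in cells without a contig and 213 (1.92%) were 2-fold or more lower, 4.48% in all. The median log2 ratio was 0.09. Of the 20 listed genes 9 were 2-fold higher and 0 were 2-fold lower, with a median of 0.87. These fold changes carry a pseudocount of 1 CPM. The split between higher and lower genes depended on the processing. It was 89 higher and 173 lower with cells thinned to 1000 UMIs before summing, and 69 and 126 with a pseudocount of 10 CPM. It was 253 and 77 with immunoglobulin, ribosomal protein and mitochondrial genes left out of the total, and 234 and 226 centred on the median gene. Among tested genes other than immunoglobulin genes 279 were higher and 69 lower, and with immunoglobulin genes also out of the total it was 252 against 74.

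Among the genes named by rule, which leaves out immunoglobulin genes, Dntt had the highest log2 ratio with the pseudocount of 1 CPM, 3.33. It stood at 430 CPM in cells without a contig and 41.8 CPM in IGH contig cells, 10.3-fold (9.75 to 10.9) without the pseudocount. At 1000 UMIs per cell it was found in 16.6% and 2.78%, and in 14.7% of pDC and 1.53% of NK or T cells. Its log2 ratio was 1.97 in cells of 1000 to under 2000 UMIs, and 2.84 without cells holding 2 or more UMIs of other lineages. Erg, an ETS transcription factor, stood at 196 against 28.0 CPM, a log2 ratio of 2.76 that was 1.92 in cells of 1000 to under 2000 UMIs. Arpp21, a phosphoprotein gene expressed early in B-cell development, stood at 103 against 10.9 CPM. The other genes named among the 10 highest were Stfa1, Emp1, Mmrn1, Mir99ahg, Myl10, Slc5a9 and Fxyd6, with log2 ratios from 2.37 for Fxyd6 to 3.04 for Stfa1. Without the pseudocount Stfa1, at 140 and 10 UMIs, and Emp1, at 280 and 65 UMIs, had higher ratios than Dntt, 36.9 (19.5 to 78.6) and 11.4 (8.64 to 15.1). At 1000 UMIs per cell, however, Stfa1 was found in 0.0322% and 0.0254% of cells and its log2 ratio was 1.64, so its level rested on very few cells.

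All 3 genes of the surrogate light chain were 2-fold higher in cells without a contig. Together they stood at 2083 against 682 CPM, a log2 ratio of 1.61 (1.59 to 1.64). Vpreb1 stood at 896 against 257 CPM, Igll1 at 1071 against 396 CPM and Vpreb2 at 116 against 29.7 CPM. The log2 ratio of Igll1, 1.43, was 2.19 with cells thinned to 1000 UMIs and 1.12 in cells of 4000 or more UMIs, and that of Vpreb1, 1.80, was 2.47 and 1.43. Because 1572 of the IGH contig cells had no light chain contig, these were also compared: their surrogate light chain sum was 1056 CPM, between cells without a contig and the 564 CPM of cells with both chains. Growth factor receptors of early progenitors were low but higher in cells without a contig, with Kit at 21.3 against 5.01 CPM and Flt3 at 13.4 against 3.45 CPM. At 1000 UMIs per cell Kit was found in 1.52% of cells without a contig and 3.07% of NK or T cells, and Flt3 in 0.677% and in 19.8% of pDC, so neither stood above both background populations. Il7r, the receptor chain for interleukin 7, differed less, at 345 against 293 CPM.

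Of 12 genes of V(D)J recombination and repair, Dntt alone was 2-fold higher and 0 were lower, with a median log2 ratio of 0.20. Rag1 stood at 178 against 112 CPM and Rag2 at 110 against 55.3 CPM. Of 19 B-lineage transcription factors 2 were 2-fold higher, Erg and Lef1, and 0 were lower. Lef1, a mediator of Wnt signalling, stood at 280 against 128 CPM. Pax5 and Tcf3 had log2 ratios of 0.03 and 0.07, and Ikzf1 stood at 625 CPM in both groups. Of 15 genes of receptor signalling 1 was 2-fold lower, the phosphatase gene Ptpn6 at 150 against 305 CPM. S phase and G2/M genes had log2 ratios of sums of 0.17 and 0.29, and 0 of 20 in either list passed 2-fold. The summed G2/M level was 3917 CPM in cells without a contig, 5143 CPM in IGH contig cells without a light chain contig and 2599 CPM in those with one.

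Genes of immature and mature B cells were lower in cells without a contig. Their 20-gene sum was 2650 against 5845 CPM, a log2 ratio of -1.14 (-1.16 to -1.13), and 7 of 20 were 2-fold lower with 0 higher and a median of -0.91. Ms4a1, which encodes CD20, stood at 134 against 473 CPM. Cd74, the invariant chain of MHC class II, stood at 1063 against 2936 CPM. Fcmr, the Fc receptor for IgM, stood at 72.5 against 193 CPM and Cd40 at 24.7 against 56.1 CPM. IGH contig cells without a light chain contig had an even lower sum, 1851 CPM.

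Plasma cell genes had the lowest ratio of sums of the lists, -1.72, but their median log2 ratio of -0.87 was no lower than that of the immature and mature genes. Cells with 10 or more UMIs of plasma cell genes were 9.22% of cells without a contig and 8.58% of IGH contig cells. Of 9 listed genes 4 were 2-fold lower and 0 higher. Jchain, which links polymeric antibodies, stood at 223 against 2350 CPM, a log2 ratio of -3.39. Tnfrsf17, the receptor BCMA, stood at 1.13 against 12.0 CPM, and Derl3, a gene of protein quality control, at 7.23 against 31.6 CPM. The other named genes with the lowest ratios were Slpi, Prg2, Ccr10, Lyz1, Tent5c, Wnt10a and Il4i1, from -2.81 for Slpi to -1.89 for Il4i1. Slpi, Tent5c, Tnfrsf17, Ccr10, Prg2 and Derl3 were among the leading genes of a plasma cell-like cluster described below (cluster 12). It held 109 IGH contig cells and 3 cells without a contig. How far its cells set these ratios was not tested. Lyz1 rested on 4 and 200 UMIs and was found at 1000 UMIs per cell in 0.0645% of cells without a contig and 0.0127% of IGH contig cells, against the direction of its ratio. Of the 3357 Jchain UMIs in cells without a contig, 2382 came from the 4 cells with a V gene at 100 or more UMIs. With all such cells left out of both groups, the log2 ratio of Jchain was -0.01, and in cells of 1000 to under 2000 UMIs it was 0.25. Of the 213 genes that were 2-fold lower, 144 were immunoglobulin genes and 69 were not. Of the 283 higher genes 4 were.

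Markers of other cell types moved with the same contrast. The 12 NK or T genes were 10 of 12 2-fold higher and summed to 360 against 141 CPM, the 11 neutrophil genes were 6 of 11 higher and summed to 5917 against 2290 CPM, and the 9 erythroid genes summed to 1618 against 670 CPM, with 4 of 7 tested genes higher. Monocyte or macrophage genes summed to 590 against 289 CPM and basophil or mast cell genes to 46.3 against 22.7 CPM. Single cells carried much of some sums. In cells without a contig 1 cell held 6644 of 24402 erythroid UMIs and 1 held 398 of 698 basophil or mast cell UMIs, and in IGH contig cells 1 held 12844 of 26623 erythroid UMIs. Cells with 2 or more monocyte or macrophage UMIs were 17.7% of cells without a contig and 19.3% of IGH contig cells. For the other lists these shares were higher in cells without a contig. They were 7.09% against 3.51% for NK or T genes and 22.9% against 21.3% for neutrophil genes. Erythroid genes had 8.06% against 6.89% and basophil or mast cell genes 0.484% against 0.292%. Per cell, the NK or T sum ran from 0 to 229 UMIs with a median of 0 in cells without a contig, and from 0 to 162 with a median of 0 in IGH contig cells. The neutrophil sum ran from 0 to 6586 with a median of 1, and from 0 to 5023 with a median of 1. Over these lists and the megakaryocyte list, 202 cells without a contig (6.51%) and 252 IGH contig cells (3.2%) held 10 or more UMIs. With all cells of 2 or more such UMIs left out, 1347 cells without a contig and 3484 IGH contig cells remained, 191 genes passed 2-fold (60 higher and 131 lower), the pro-B and pre-B sum had a log2 ratio of 0.50 and the immature and mature sum -1.13. This left out 56.6% and 55.8% of the cells by a count that was not thinned, so the part of other lineages was not tested apart from depth and cell number. For the pDC list 0 of 8 tested genes passed 2-fold and the sums were 1173 against 1099 CPM, Siglech being 0 by selection.

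Cells without a contig were heterogeneous, and their stage genes differed with their V transcripts. The V classes are ranges of a count, and their V levels are fixed by definition. Dntt stood at 752 CPM in cells with 0 IGH V UMIs, 641 CPM in those with some and 39.0 CPM in those with a leading V gene, the last close to the 41.8 CPM of IGH contig cells. At 1000 UMIs per cell Dntt was found in 36.0%, 22.3% and 3.15%, and the 2.78% of IGH contig cells lay close to the last. Erg was found in 28.0%, 17.7% and 2.45%, and Arpp21 in 14.8%, 9.47% and 0.613%. The surrogate light chain sum was 3405, 2735 and 767 CPM in the same order. The sum of the 20 immature and mature B genes had the opposite order, at 1176, 2481 and 3372 CPM, with Ms4a1 at 15.8, 110 and 207 CPM. Rag1 was found in 20.3%, 23.5% and 20.4%, with overlapping intervals. Il2ra, encoding CD25, a marker of pre-B cells, was found in 5.79%, 14.8% and 16.6%.

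**Figure D4:**
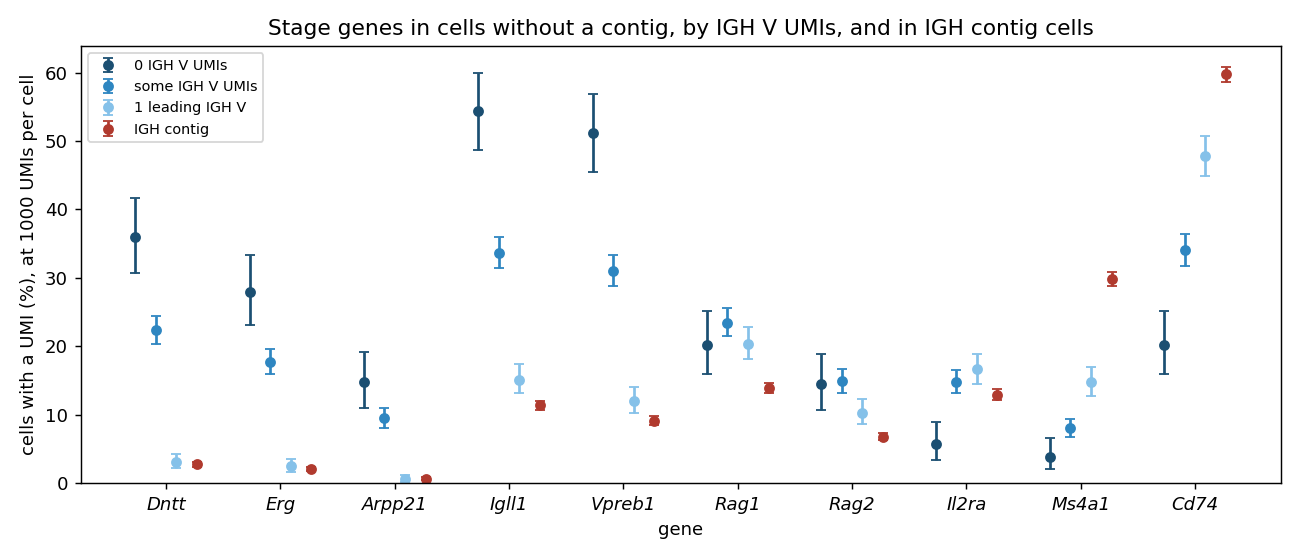
Percentage of cells with at least 1 UMI of each gene after thinning to 1000 UMIs per cell, for cells without a contig with 0, some or 1 leading IGH V gene and for IGH contig cells, with 95% exact intervals. Dntt is found in 36.0%, 22.3%, 3.15% and 2.78% of these cells, and Cd74 in 20.3%, 34.0%, 47.8% and 59.8%.

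Between the extremes of this order, 7328 genes had at least 100 UMIs in the higher group. In cells with 0 IGH V UMIs 195 (2.66%) were 2-fold higher than in cells with a leading V gene and 348 (4.75%) were 2-fold lower, 7.41% in all. These counts include immunoglobulin genes, whose V genes differ by definition of the classes. Of 7232 other genes 195 (2.7%) were higher and 256 (3.54%) lower, 6.24% in all. Of 17 tested pro-B and pre-B genes 7 were higher and 1 was lower, and of 16 tested immature and mature genes 11 were lower and 0 higher. Other lineages differed as well. Neutrophil genes summed to 13329 CPM in cells with 0 IGH V UMIs and 1718 CPM in those with a leading V gene, and NK or T genes to 797 and 149 CPM. Erythroid genes summed to 352 and 3183 CPM, with the beta-globin gene Hbb-bs at 31 and 13402 UMIs. The part of cells of other lineages in the stage gene differences was not tested in this comparison.

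The cells without a contig were unevenly spread over clusters of the Cd79a cells. All 11533 Cd79a cells were clustered on genes other than immunoglobulin genes, which gave 15 clusters, and the share without a contig ranged from 2.59% to 76.6%. It was highest in cluster 7, with 384 of 501 cells (interval 72.7% to 80.3%). This cluster was pro-B-like by 7 of 8 fixed markers, was led by Arpp21, Vpreb1, Dntt and Erg among others, and had Dntt at 1567 CPM and Vpreb1 at 3923 CPM. Of its cells without a contig 22.9% had 0 IGH V UMIs and 3.13% had a leading V gene, while 78.1% of its IGH contig cells had one. In cluster 10, 255 of 346 cells (73.7%) had no contig. It also held 6 of 8 pro-B markers, with Dntt at 890 CPM, but was led by the granulocyte genes Mpo, Ctsg, Prtn3 and Elane, so it is given no cell type name. Its median cell had 12705 UMIs, and 15 of the 17 cells that resembled the deleted library lay in it.

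In clusters of later stages the share without a contig was lower than in cluster 7. Clusters 0 and 1 were small pre-B-like by 3 of 6 fixed markers, Rag1, Rag2 and Il2ra. Cluster 7 also held 3 of these 6, Rag1, Rag2 and Arpp21. Arpp21 stood at 2.61 and 2.86 CPM in clusters 0 and 1 and at 582 CPM in cluster 7. No contig was listed for 625 of 2001 cells (31.2%) of cluster 0 and 524 of 1951 (26.9%) of cluster 1. These were 20.2% and 16.9% of all cells without a contig, against 12.4% in cluster 7 and 8.22% in cluster 10. The cycling-like cluster 5 had 24.0% without a contig. It held 6 of 6 cycling markers. Clusters 8 and 10 held 3 of these 6 each. Cluster 8 had 41.3% without a contig and Mki67 at 2452 CPM, against 1496 CPM in cluster 5. The immature or mature B-like cluster 2 had 5.19% without a contig, and the plasma cell-like cluster 12 had 3 of 116 cells (2.59%). In the cells without a contig of clusters 0, 1, 2 and 5, a leading V gene was found in 37.9%, 53.4%, 57.3% and 67.7%, against 3.13% in cluster 7. Clusters 3, 6, 9 and 13 were given no name and had 8.0%, 23.8%, 19.4% and 3.17% without a contig. Cluster 13 held markers of 2 classes, 5 of 6 cycling markers and 5 of 8 immature or mature B markers. Clusters 4 and 8 had 37.6% and 41.3% and stood apart in their ribosomal protein UMIs, with medians of 3.49% and 2.84%. Without these and clusters 12 and 14, whose medians were 6.25% and 6.70%, the overall share was 25.2%. Clusters 11 and 14 were led by NK or T genes and by neutrophil genes, had 47.3% and 48.3% without a contig, and a doublet score of 0.25 or more was found for 49.3% of the cells of cluster 11.

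**Figure D5:**
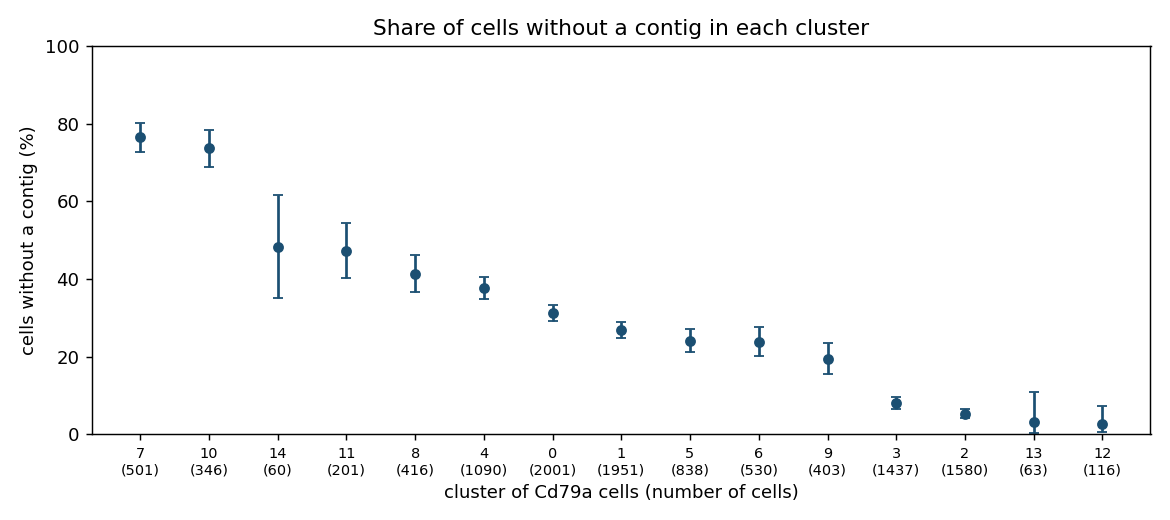
Percentage of cells without a contig in each of the 15 clusters of Cd79a cells, ordered by that share, with 95% exact intervals and cell numbers in brackets. Clusters 7 and 10 stand at 76.6% and 73.7%, above all others, and clusters 2, 13 and 12 are the lowest.

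Within the small pre-B-like clusters, few genes other than immunoglobulin genes differed 2-fold between cells with and without a contig. The clusters were formed on such genes, so cells of 1 cluster resemble each other in them by construction. In cluster 0, of 5458 tested genes that were not immunoglobulin genes 1 (0.0183%), Igll1, passed 2-fold between 625 cells without a contig and 1285 IGH contig cells, and in cluster 1 the count was 0 of 5432 (0.0%). Dntt stood at 29.2 against 21.9 CPM in cluster 0 and at 22.9 against 23.0 CPM in cluster 1. Igll1 stood at 195 against 92.4 CPM in cluster 0 and at 97.2 against 64.3 CPM in cluster 1. Vpreb1 and Erg lay just under the 2-fold limit in cluster 0, with log2 ratios of 0.99 and 0.96. In the pro-B-like cluster 7, Dntt stood at 1763 CPM in 384 cells without a contig and 1062 CPM in 96 IGH contig cells, and Ms4a1 and Il2ra were lower in cells without a contig, at 48.4 against 224 CPM and 12.7 against 100.4 CPM. Of its 2606 tested genes outside the immunoglobulin genes, 46 (1.77%) passed 2-fold. Other clusters also had more such genes than clusters 0 and 1. The count was 140 of 6391 in cluster 2 (82 cells without a contig), 119 of 4957 in cluster 3 (115) and 172 of 5556 in cluster 10 (255). It was 3 of 2775 in cluster 9 (78 cells without a contig), 7 of 6624 in cluster 5 (201) and 19 of 7026 in cluster 6 (126). The log2 ratio of Dntt was 0.73 in cluster 7, 1.41 in cluster 10, 1.85 in cluster 8 and 2.70 in cluster 11. How far depth and cell number set these counts was not tested.

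The same selection in the other libraries gave cells with other V transcripts. In the control Kit+ library 22 of 58 Cd79a cells (37.9%) had no contig and in the SI library 8 of 31 (25.8%), too few for more than their values. In the Mll3/4 deleted Kit+ library 10636 of 13992 (76.0%) had none. A leading IGH V gene was found in 0.658% of those deleted cells, against 36.8% in the B220lo library. The median deleted cell held UMIs of 19 different IGH V genes and the median B220lo cell without a contig 2, at median depths of 6644 and 2933 UMIs. Dntt stood at 1252 CPM in the deleted cells and 430 CPM in the B220lo cells, Igll1 at 2651 and 1071 CPM, and Kit at 362 and 21.3 CPM. Sort gate, genotype, depth and Y-linked transcripts, found in 62.0% of the deleted cells, differ together between these libraries and cannot be told apart.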

How the data were processed

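Single cells were profiled with a 10x 5′ v2 kit, per the labels, and processed with Cell Ranger 7.1.0 against mm10, per the submitters' processing notes. The values are UMI counts per gene and barcode as deposited by the authors, with a contig table per library. The B220lo library held 16861 barcodes and the others 12205 to 15091, with median depths of 3272 UMIs in B220lo and 6761 to 12148 in the others. Barcodes were filtered as stated, counts were summed over cells, scaled to CPM and compared as log2 ratios with a pseudocount of 1 CPM. Genes needed 100 UMIs in the higher group, and 2-fold was called. With 1 library per group no test was possible, and shares have exact Clopper-Pearson and counts exact Poisson 95% intervals, which cover counting error only.

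Most shares of cells with a UMI of a gene were compared after random thinning to 1000 UMIs. Leading V genes, V classes, per-cell sums of gene lists and the first Ighv14-2 shares used full depth. Clusters used 2000 variable genes, 30 components, 15 neighbours and Leiden resolution 1.0 (scanpy 1.11.5, leidenalg 0.10.2, scikit-learn 1.9.0, numpy 2.4.6, scipy 1.17.1, Python 3.11.15), and were named from fixed markers. Doublets were scored with Scrublet in scanpy and kept. The named genes were the 10 highest and 10 lowest ratios outside immunoglobulin, mitochondrial, ribosomal protein, Y-linked and unnamed genes, plus the genes of 20 lists. One list gene is not reported here. Members and lists were chosen with earlier results of these data known. On counts simulated for 11034 genes of this comparison, 96% of 200 changed genes were recovered within 0.5 on the log2 scale and 100% of unchanged genes stayed under 2-fold. Alternatives changed the cell filter, the Cd79a and Siglech limits, the contig condition, depth, scaling and pseudocount.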

Additional observations from a re-analysis of the deposited data

How the results depend on the processing

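No paired analysis was possible because each group had 1 library. The pro-B and pre-B sum kept a log2 ratio above 0 and the immature and mature sum one below 0 in every alternative run. The share without a contig was 24.7% with a stricter cell filter (2000 UMIs, 1000 genes, 5% mitochondrial), 24.8% with 3 Cd79a UMIs, 30.1% with 1, 27.7% with no Siglech condition and 31.7% with light chain contigs allowed. The genes past 2-fold numbered 725 with 1 Cd79a UMI (504 of them higher) and 384 with 3 (173 higher and 211 lower). They numbered 493 against all kept IGH contig cells (218 higher and 275 lower) and 670 with 20 UMIs in the higher group (451 higher). There were 191 without cells of other lineages, 48 at 1000 to under 2000 UMIs, 262 with thinned cells and 195 with a pseudocount of 10 CPM. A total restricted to genes that are not immunoglobulin, ribosomal or mitochondrial gave 330.

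The log2 ratio of the pro-B and pre-B sum was 0.61 with the stricter filter, 0.66 with 3 Cd79a UMIs, 0.46 with 1, 0.53 with no Siglech condition, 0.50 without cells of other lineages, 0.63 without high doublet scores, 0.53 with light chain contigs allowed, 0.64 against all IGH contig cells, 0.54 at 1000 to under 2000 UMIs, 0.46 at 4000 or more, 0.54 with the reduced total, 0.73 thinned and 0.51 centred on the median gene. That of the immature and mature sum was -1.17 with the stricter filter, -0.89 with no Siglech condition, -1.13 without cells of other lineages, -1.19 without high doublet scores, -0.89 with light chain contigs allowed, -0.76 at 1000 to under 2000 UMIs, -0.87 at 4000 or more, -1.20 with the reduced total, -1.26 thinned and -1.23 centred. The share with an IGH V UMI was 66.1% with the stricter filter, 66.3% with 1 Cd79a UMI, 67.1% with no Siglech condition, 79.9% without cells of other lineages, 85.9% at 1000 to under 2000 UMIs, 52.8% at 4000 or more and 90.0% without thinning.

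Alternatives chosen after seeing the data gave 326 genes with immunoglobulin genes out of the tested genes and of the total. Without the clusters of low ribosomal share (4, 8, 12 and 14) they gave 25.2% without a contig, -1.19 for the mature sum and 68.4% with an IGH V UMI. Without cells of 100 or more UMIs of a V gene they gave 0.53 and -1.18 for the sums. Jchain alone changed sign, from -3.39 to 0.25 at 1000 to under 2000 UMIs, and the cause was not tested. Of the recomputed main values, 27 stayed near the reported value (within its counting interval, for ratios and shares) and 46 moved further. Of those of single genes, directions and classes of cells, 123 stayed near and 178 moved further.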
